A study of Danio rerio with 10 samples.

Results

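The lysosome of zebrafish kidney marrow was examined through 43 genes of 8793 genes that the array measured under a single symbol. They were the genes whose symbol began with that of a cathepsin, a subunit of the vacuolar proton pump (atp6v, atp6ap), a LAMP or SCARB2 membrane protein, a named glycosidase, sulfatase or saposin gene, legumain, an NPC gene or a CLN gene. The choice used names only and no measured value. The 43 genes fell into 14 cathepsins and legumain, 5 glycosidase, sulfatase and activator genes, 15 proton pump genes, 5 membrane protein genes and 4 genes of cholesterol export and ceroid lipofuscinosis. Where a gene had several probe sets, which was so for 3 of the 43, its probe set with the highest mean signal was used.

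Lysosomes are acidic organelles in which proteases, glycosidases and lipases break down material taken up by the cell or delivered by autophagy. The vacuolar proton pump, a rotary enzyme with a cytosolic V1 sector that splits ATP and a membrane V0 sector that passes protons, acidifies them. In marrow, macrophages are rich in lysosomes, neutrophil granules are related organelles, and mammalian osteoclasts use the same pump and cathepsin K to dissolve bone. The same pump also works at the cell surface of acid-secreting cells of the kidney, whose tissue surrounds the marrow in fish.

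RNA of kidney marrow, where adult fish make their blood, was measured in 5 samples from zebrafish overexpressing human CREB (the cyclic AMP response element-binding protein), a transcription factor, and in 5 samples from control zebrafish. Strain, age, sex, the promoter of the transgene and what the controls carried are not given in the sources used here. Each array gave 1 log2 signal per probe set, with array medians between 5.72 and 5.93. Whether each sample was 1 fish or a pool is also not given, so p-values measure the spread between these samples, which may in part be technical. Precision is limited by having 5 arrays on each side. A difference is the mean of CREB arrays minus the mean of control arrays on the log2 scale. It was called where limma's adjusted p over 15502 probe sets was under 0.05.

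The zebrafish gene creb1a had a mean of 6.80 ± 0.32 on CREB arrays against 6.97 ± 0.36 on control arrays (SD, n = 5 each; limma, adjusted p = 0.519), on a probe set designed on the zebrafish transcript, which does not check the human transgene. The neutrophil lysozyme gene lyz, a marker of marrow, was between 13.06 and 14.25 on all 10 arrays. Some arrays stood apart from the others of their group. Gonad and egg markers had a mean level of 9.05, 7.69 and 9.03 on control arrays 3, 4 and 5, against 5.95 and 5.33 on control arrays 1 and 2, and of 7.15 on CREB array 4. Exocrine pancreas markers reached 9.33 on control array 4 and 10.31 on control array 5, against 5.61 to 6.67 elsewhere. On CREB arrays 3 and 5 the 5′ control probe set of gapdh was at 6.50 and 6.74, against 9.54 to 10.70 on the other 8 arrays. Kidney tubule and ionocyte markers were higher in CREB fish, with 19 of 26 called (73.1%) and a median difference of 1.0. Skeletal muscle markers were higher too, with 18 of 20 called (90%) and a median difference of 4.28. Their mean level was 8.91 in CREB and 5.45 in control fish, and groups did not overlap in 18 of the 20. Over all genes 28.4% were called, 19.3% higher. In whole-tissue RNA, fewer cells of a type and less RNA per cell cannot be told apart.

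Of the 43 lysosomal genes, 6 were called lower in CREB fish, 1 was called higher and 36 did not pass. Over all 8793 genes 28.4% were called, 19.3% higher and 9.09% lower, against 16.3% of the lysosomal genes. The median difference of the 43 was -0.01, that of all genes 0.10, with 21 estimates of the 43 above 0 and 22 below. With the dimmest 40% of probe sets left out, the median was -0.01 for lysosomal genes and -0.03 for all genes. Then 21.4% of all genes were called. Under quantile scaling the medians were 0.02 and 0.01, with 20% of all genes called. Called lower were the protease genes ctsba, ctss2.1 and ctsa, the membrane protein gene lamp2 and the cholesterol export genes npc1 and npc2.1. The gene called higher, atp6ap1la, is a relative of a proton pump accessory subunit. Groups did not overlap in 3 of the 43 genes, npc1 and lamp1b on the lower side and atp6ap1la on the higher side, and in 20.9% of all genes. For 30 of the 43 the 95% confidence interval of the difference included 0, and for 20 it lay within 1 on either side of 0. The calls depended on the arrays used. Without control arrays 3, 4 and 5, where 2.63% of all genes were called, npc1 kept its call, the other 6 calls were lost and ctss1 was called lower. Without CREB arrays 3 and 5, npc1 again kept its call, the other 6 were lost and scarb2a was called higher, with 12.7% of all genes called. Leaving out dim probe sets ended the calls of ctsba, ctsa and lamp2, and other scalings ended those of ctsba (quantile, median and cyclic loess), ctsa (quantile) and lamp2 (cyclic loess). Weighting the arrays ended no call and added lower calls of ctss1, cln6a and atp6v1b2, with 35.7% of all genes called.

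**Figure D1:**
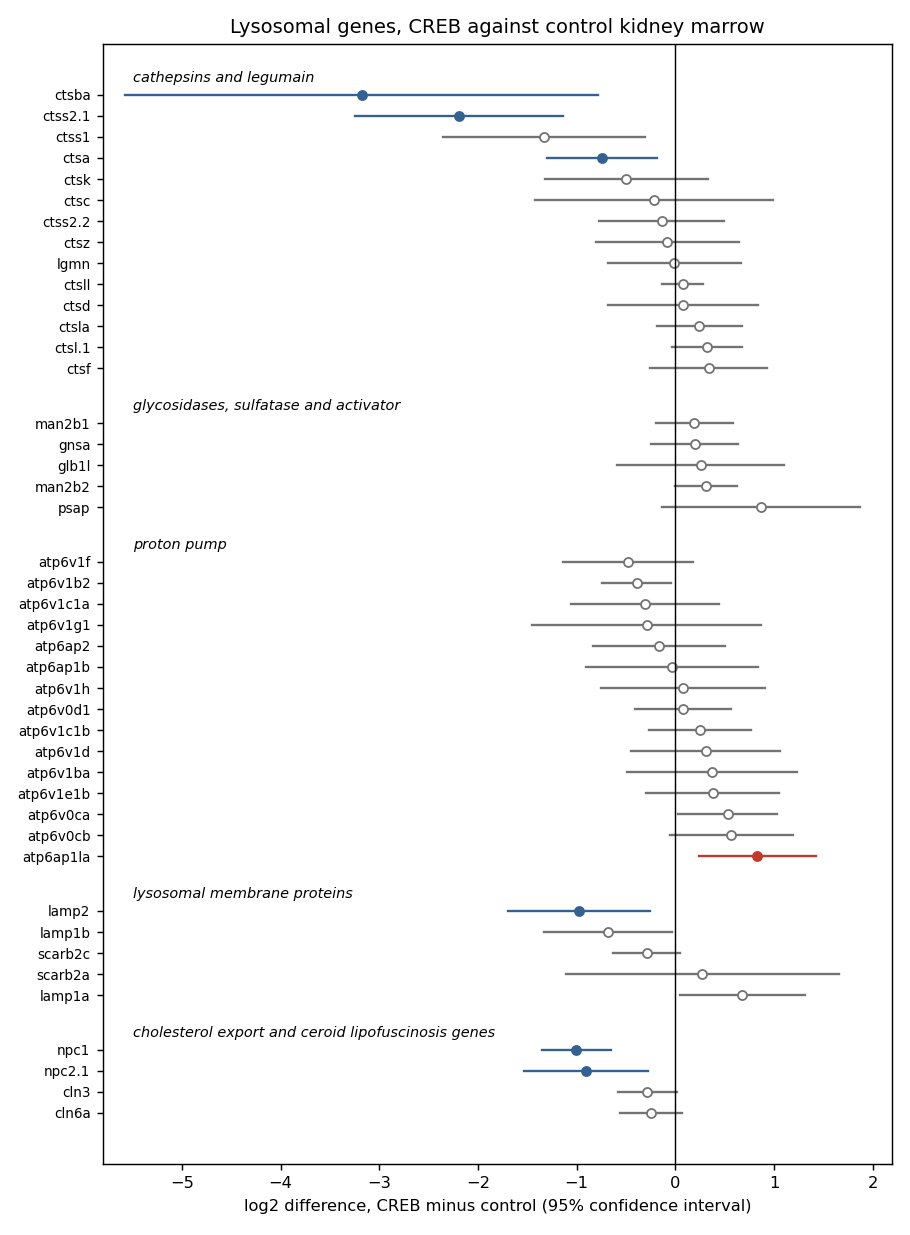
Log2 difference between CREB and control marrow for each of the 43 genes, grouped by role, with the 95% confidence interval from limma (n = 5 arrays per group). Filled blue points are called lower, the filled red point is called higher, open points did not pass; ctsba lies furthest from 0, at -3.18, with the widest interval, and npc1, at -1.0, has a narrow one.

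Of the 14 cathepsin and legumain genes, ctss2.1, ctsba and ctsa were lower in CREB fish and 11 did not pass. So 21.4% were called, all of them lower, against 28.4% of all genes, 9.09% of them lower. Cathepsins are the proteases of the lysosome, and legumain (lgmn) is the asparaginyl protease that processes several of them. The mean level of the 14 genes was 8.94 ± 0.17 on CREB arrays and 9.46 ± 0.41 on control arrays (SD, n = 5 each), and the median difference was -0.11.

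The gene ctss2.1 encodes a cathepsin S, a protease that in mammals trims the invariant chain during antigen presentation. It was at 9.38, 9.53, 9.64, 11.13 and 8.84 on CREB arrays 1 to 5. On control arrays 1 to 5 it was at 11.45, 10.98, 12.87, 11.52 and 12.63. The groups overlapped through CREB array 4, which lay above control array 2, and control arrays 3 and 5 were the highest. The difference was -2.19 ± 0.47 (SE; limma, adjusted p = 0.0110), 4.56-fold lower in CREB fish. The call was kept without any 1 array (adjusted p up to 0.0276). It was lost without control arrays 3, 4 and 5, at -1.52 (limma, adjusted p = 0.138). Leaving out CREB arrays 3 and 5 also ended it, at -1.88 (limma, adjusted p = 0.0581; from 0.00405 to 0.138 over all alternatives). The high values on control arrays 3 and 5 went with gonad and egg marker levels of 9.05 and 9.03. On control array 4 these markers were at 7.69 and on control array 1 at 5.95, while ctss2.1 was at 11.52 and 11.45 there. The part of these markers in the result was not tested.

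The neighbouring gene on the chromosome, ctss2.2, is a cathepsin S paralogue, and ctsk lies on the other side of ctss2.1. The brightest probe set of ctss2.2 differed by -0.14 ± 0.29 (SE; limma, adjusted p = 0.721), with an interval from -0.77 to 0.50. The gene ctsk, which in mammals encodes the collagen-degrading protease of osteoclasts, differed by -0.50 ± 0.37 (SE; limma, adjusted p = 0.313). Paralogues of this cluster may share signal on an oligonucleotide array, which was not tested. A further cathepsin S gene, ctss1, was at 5.60, 4.97, 6.32, 4.72 and 5.80 in CREB fish and at 7.66, 7.67, 5.89, 7.10 and 5.72 in control fish. The groups overlapped, since control arrays 3 and 5 lay among the CREB arrays. Its difference of -1.33 ± 0.46 (SE) narrowly missed the threshold (limma, adjusted p = 0.0518). It passed without CREB array 3, at -1.54 (adjusted p = 0.0455), without control array 3, at -1.56 (0.0428), and without control array 5, at -1.60 (0.0349). It also passed without control arrays 3, 4 and 5, at -2.19 (limma, adjusted p = 0.0457; from 0.00917 to 0.114 over all alternatives). Array weights, and the trend and robust settings of eBayes, let it pass too. So ctss1 was lowest among controls on the arrays where ctss2.1 was highest.

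The cathepsin B gene ctsba had the widest range of the 43 genes. Cathepsin B is a broadly expressed cysteine protease. It was at 9.65, 4.97, 6.14, 5.19 and 9.39 on CREB arrays 1 to 5 and at 11.28, 10.36, 11.49, 10.29 and 7.83 on control arrays 1 to 5. CREB arrays 1 and 5 lay above control array 5, and CREB arrays 2 and 4 were within 1 of the mean of the control probe sets for artificial tag sequences (4.28 and 4.25 on those arrays). The difference was -3.18 ± 1.08 (SE; limma, adjusted p = 0.0479). The call was kept without CREB array 1, CREB array 5 or control array 5 and lost without any other 1 array (adjusted p up to 0.0982, differences from -3.83 to -2.66).

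The gene ctsa encodes cathepsin A, a serine carboxypeptidase that in mammals also protects neuraminidase and beta-galactosidase from degradation. It was at 10.30, 10.69, 10.14, 10.92 and 9.59 in CREB fish and at 11.59, 11.07, 10.82, 11.09 and 10.79 in control fish. Only CREB array 4 reached into the control range. The difference was -0.74 ± 0.25 (SE; limma, adjusted p = 0.0485). The call was kept without CREB array 2 or CREB array 4 and lost without any other 1 array (adjusted p up to 0.0979, differences from -0.89 to -0.56).

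The other 8 genes of this class had estimates between -0.22 and 0.34. The aspartic protease gene ctsd differed by 0.08 ± 0.34 (SE; limma, adjusted p = 0.866), with an interval from -0.68 to 0.84. The legumain gene lgmn differed by -0.01 ± 0.30 (SE; limma, adjusted p = 0.980), with an interval from -0.68 to 0.66. The gene ctsc, whose product activates granule serine proteases in mammals, was highest on CREB arrays 4 and 3 among CREB fish and lowest on CREB array 5, at 8.09, and differed by -0.22 ± 0.54 (SE; limma, adjusted p = 0.775). The cathepsin L gene ctsla, with the highest signal of the class, was at 11.92, 12.28, 12.23, 11.66 and 11.54 in CREB fish and at 12.03, 11.97, 11.59, 11.34 and 11.49 in control fish. The groups overlapped over most of their range. Differences were 0.24 ± 0.19 for ctsla and 0.32 ± 0.16 for its relative ctsl.1 (SE; limma, adjusted p = 0.341 and 0.144). The latter passed without control array 2, at 0.46 (limma, adjusted p = 0.0273). The cathepsin L family gene ctsll, between 3.07 and 3.39 on all 10 arrays, was below the tag sequence control probe sets, so no level is read from it. The carboxypeptidase gene ctsz and the gene ctsf differed by -0.08 ± 0.33 and 0.34 ± 0.27 (SE; limma, adjusted p = 0.860 and 0.339).

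None of the 5 glycosidase, sulfatase and activator genes was called, against 28.4% of all genes, and 1 had an unadjusted p under 0.05. All 5 estimates lay above 0, with a median of 0.26, against a median of 0.10 over all genes. The largest was that of psap, which encodes prosaposin, the precursor of the saposins that present sphingolipids to lysosomal hydrolases. It was at 10.38, 10.22, 9.98, 11.61 and 9.41 in CREB fish and at 9.38, 10.76, 9.37, 9.02 and 8.73 in control fish. CREB array 4 was the highest of all, and control array 2 lay above 4 of the 5 CREB arrays. The difference was 0.87 ± 0.45 (SE; limma, adjusted p = 0.157). Without control array 2 it was 1.2 and passed (limma, adjusted p = 0.0476; from 0.0476 to 0.782 over all alternatives). The lysosomal alpha-mannosidase genes man2b1 and man2b2 differed by 0.19 ± 0.18 and 0.31 ± 0.14 (SE; limma, adjusted p = 0.405 and 0.110). The glucosamine-6-sulfatase gene gnsa and the beta-galactosidase-like gene glb1l differed by 0.19 ± 0.20 and 0.26 ± 0.38 (SE; limma, adjusted p = 0.459 and 0.614). Without control arrays 3, 4 and 5 the estimates of man2b1, gnsa and glb1l turned negative, at -0.07, -0.05 and -0.47, and none passed.

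**Figure D2:**
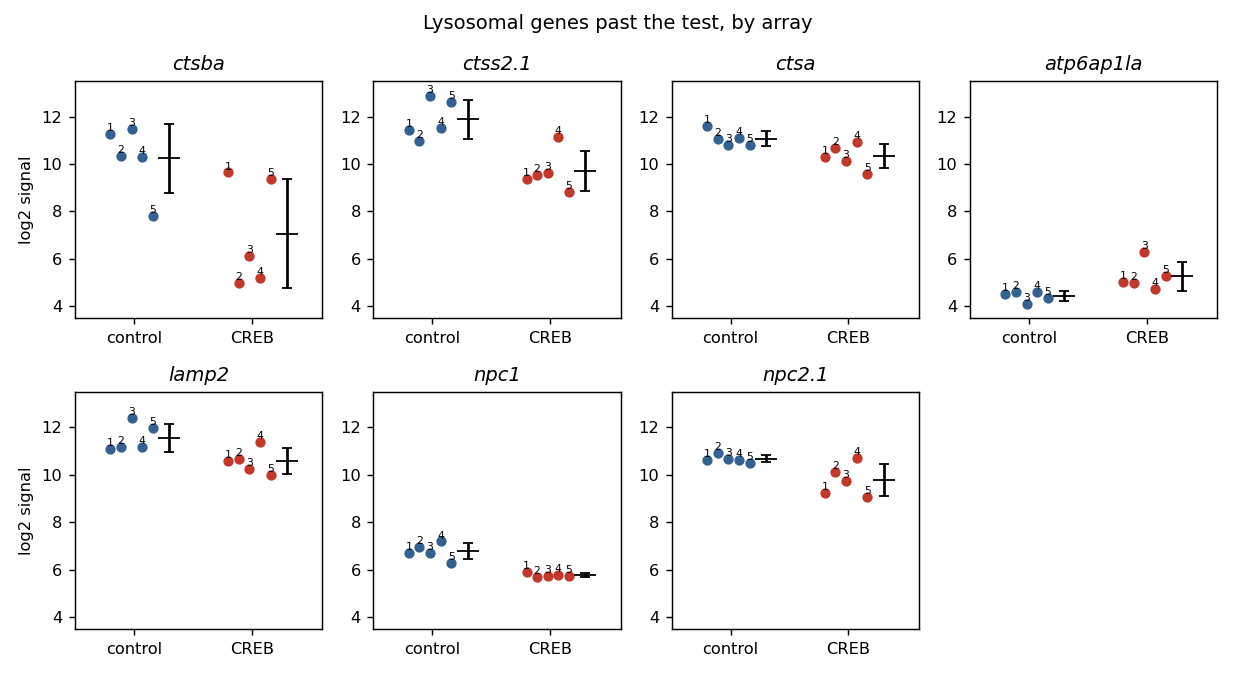
Log2 signal on each array for the 7 genes called between the groups; numbers beside the points are array numbers, and the bar gives the mean ± SD (n = 5). The CREB points of npc1 lie between 5.69 and 5.91, below all control points, while CREB array 4 enters the control range in ctss2.1, ctsa, lamp2 and npc2.1.

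The proton pump was represented by 9 genes of the V1 sector, 3 of the V0 sector and 3 accessory subunit genes, and 14 of the 15 did not pass. So 6.67% were called, against 28.4% of all genes. The mean level of the 15 was 8.56 ± 0.47 on CREB arrays and 8.45 ± 0.36 on control arrays (SD, n = 5 each), with a median difference of 0.08 against 0.10 for all genes.

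In the V1 sector none of 9 genes was called, and 1 had an unadjusted p under 0.05. The B subunits take part in ATP binding. Their gene atp6v1ba was at 9.42, 10.14, 10.12, 11.49 and 9.16 in CREB fish and at 9.84, 10.14, 9.60, 9.60 and 9.30 in control fish. Apart from CREB array 4 the groups covered the same range. The difference was 0.37 ± 0.39 (SE; limma, adjusted p = 0.469). The paralogue atp6v1b2, within 1 of the tag sequence level, was at -0.39 ± 0.16 (SE; limma, adjusted p = 0.0810). It passed under quantile and cyclic loess scaling, at -0.63 and -0.68 (limma, adjusted p = 0.0195 and 0.0145), and without control array 3, at -0.49 (adjusted p = 0.0440). With array weights it passed too.

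The gene atp6v1f, which had the highest signal of the pump, was at 10.30, 10.45, 9.59, 11.04 and 9.61 in CREB fish and at 11.06, 11.10, 10.36, 10.55 and 10.34 in control fish. CREB arrays 1, 3 and 5 lay below all control arrays, and CREB array 4 was level with control array 1. The rotor shaft genes atp6v1d and atp6v1f differed by 0.31 ± 0.34 and -0.48 ± 0.29 (SE; limma, adjusted p = 0.498 and 0.222). The stator genes atp6v1e1b and atp6v1g1 differed by 0.38 ± 0.30 and -0.29 ± 0.52 (SE; limma, adjusted p = 0.345 and 0.682). The stator-collar genes atp6v1c1a and atp6v1c1b had -0.31 ± 0.34 and 0.25 ± 0.23, and the regulatory subunit gene atp6v1h had 0.08 ± 0.38 (SE; limma, adjusted p = 0.486, 0.409 and 0.881). The 95% intervals of the 9 differences reached from -1.45 to 1.23 at their widest, with a median half-width of 0.75.

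All 3 V0 genes had estimates above 0 on their brightest probe sets, none passed, and 1 had an unadjusted p under 0.05. The median over all genes was 0.10. A second probe set of atp6v0ca was at -0.31 ± 0.86 (SE; limma, adjusted p = 0.795), so the shared sign depends on the probe set used. The proteolipid genes atp6v0ca and atp6v0cb encode the ring that carries protons through the membrane, and atp6v0d1 links the ring to the rotor. The brightest probe set of atp6v0ca was at 9.76, 10.05, 10.08, 10.49 and 9.85 in CREB fish and at 9.92, 10.09, 9.28, 9.21 and 9.08 in control fish. Control arrays 3, 4 and 5 lay below all CREB arrays, and control arrays 1 and 2 lay among them. The difference was 0.53 ± 0.23 (SE; limma, adjusted p = 0.0958), and it was 0.04 without control arrays 3, 4 and 5. The gene atp6v0cb differed by 0.57 ± 0.28 and atp6v0d1 by 0.08 ± 0.22 (SE; limma, adjusted p = 0.139 and 0.788). Without control array 2 both proteolipid genes passed, at 0.67 and 0.77 (limma, adjusted p = 0.0434 and 0.0431).

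Of the accessory subunit genes, atp6ap1la was higher in CREB fish. It was at 5.03, 4.99, 6.29, 4.72 and 5.30 on CREB arrays and at 4.51, 4.60, 4.12, 4.62 and 4.34 on control arrays. The groups did not overlap, CREB array 4 being the lowest of its group and CREB array 3 the highest. The difference was 0.83 ± 0.27 (SE; limma, adjusted p = 0.0401). No fold is given and the size of the difference is not read, since the signal was within 1 of that of tag sequence probe sets, which themselves averaged 4.33 in CREB and 4.08 in control fish. The call was lost under quantile, median and cyclic loess scaling, at 0.64, 0.77 and 0.55 (limma, adjusted p = 0.147, 0.0803 and 0.154). It was kept without CREB array 2, 3 or 4 and lost without any other 1 array (limma, adjusted p up to 0.0844). The accessory genes atp6ap1b and atp6ap2, the latter known as the prorenin receptor gene, differed by -0.03 ± 0.39 and -0.17 ± 0.30 (SE; limma, adjusted p = 0.953 and 0.677).

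The LAMP genes encode heavily glycosylated proteins that line the lysosomal membrane, and their members differed in sign. The gene lamp2 was at 10.59, 10.68, 10.25, 11.40 and 9.99 in CREB fish and at 11.08, 11.16, 12.40, 11.19 and 11.97 in control fish. CREB array 4 lay above 3 control arrays, and control arrays 3 and 5 were again the highest. The difference was -0.98 ± 0.33 (SE; limma, adjusted p = 0.0456), 1.97-fold lower in CREB fish. The call was kept without CREB array 4, control array 1 or control array 2 and lost without any other 1 array (adjusted p up to 0.100, differences from -1.18 to -0.77). Without control arrays 3, 4 and 5 the difference was -0.53 (limma, adjusted p = 0.323).

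The gene lamp1b was at 6.51, 6.83, 6.74, 6.71 and 6.70 in CREB fish and at 6.94, 6.88, 8.42, 6.85 and 7.81 in control fish. The groups did not overlap, but control arrays 1, 2 and 4 lay just above CREB array 2, and control arrays 3 and 5 were far above the others. The difference was -0.68 ± 0.29 (SE; limma, adjusted p = 0.0975), and it was -0.22 without control arrays 3, 4 and 5. Its paralogue lamp1a differed by 0.68 ± 0.29 in the other direction (SE; limma, adjusted p = 0.0931). It was at 9.40, 9.44, 9.44, 10.56 and 9.02 in CREB fish and at 9.19, 9.22, 8.35, 9.08 and 8.64 in control fish. Control array 3, with the highest lamp2 and lamp1b, had the lowest lamp1a.

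The SCARB2 proteins carry glucocerebrosidase to lysosomes in mammals. The gene scarb2a was at 8.04, 8.79, 5.26, 7.77 and 5.86 in CREB fish and at 7.33, 7.13, 6.65, 6.84 and 6.40 in control fish. CREB arrays 1, 2 and 4 were above all control arrays, and CREB arrays 3 and 5, those with a low gapdh 5′ signal, were below all of them. The difference over all arrays was 0.27 ± 0.62 (SE; limma, adjusted p = 0.750). It was 1.33 and passed once CREB arrays 3 and 5 were left out (limma, adjusted p = 0.0271; from 0.0271 to 0.961 over all alternatives). It was -0.14 without CREB array 2. The gene scarb2c differed by -0.29 ± 0.15 (SE; limma, adjusted p = 0.158), and passed without CREB array 4, at -0.42 (adjusted p = 0.0160).

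The 4 genes of cholesterol export and ceroid lipofuscinosis all had estimates below 0, and 2 were called. Over all genes 28.4% were called, 9.09% lower, and 4 genes are too few to read a share from. NPC1, a membrane protein, and NPC2, a soluble protein, pass cholesterol out of the lysosome in sequence. The gene npc1 was at 5.91, 5.69, 5.72, 5.79 and 5.75 in CREB fish and at 6.70, 6.97, 6.70, 7.19 and 6.30 in control fish. All CREB arrays lay below all control arrays, and the CREB arrays differed little among themselves. The difference was -1.0 ± 0.16 (SE; limma, adjusted p = 0.00421), 2.0-fold lower in CREB fish. The call was kept under each alternative tried, scalings, left-out arrays and the replicate block included, with differences from -1.15 to -0.90 (limma, adjusted p from 0.00175 to 0.0251). Each of the other 6 calls was lost under at least 1 alternative.

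The gene npc2.1 was at 9.24, 10.12, 9.73, 10.70 and 9.05 in CREB fish and at 10.64, 10.92, 10.67, 10.63 and 10.51 in control fish. Control values were close together, and CREB array 4 lay among them. The difference was -0.91 ± 0.28 (SE; limma, adjusted p = 0.0367). The call was kept without CREB array 2 or CREB array 4 and lost without any other 1 array (adjusted p up to 0.0796, differences from -1.14 to -0.73). The genes cln3 and cln6a, whose human counterparts are mutated in neuronal ceroid lipofuscinoses, differed by -0.29 ± 0.13 and -0.25 ± 0.14 (SE; limma, adjusted p = 0.124 and 0.186). The signal of cln3 was within 1 of the tag sequence level. It passed without CREB array 4, at -0.37 (limma, adjusted p = 0.0419), and under quantile and cyclic loess scaling, at -0.50 and -0.56 (adjusted p = 0.0363 and 0.0277). The gene cln6a passed with array weights only (limma, adjusted p = 0.0454).

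**Figure D3:**
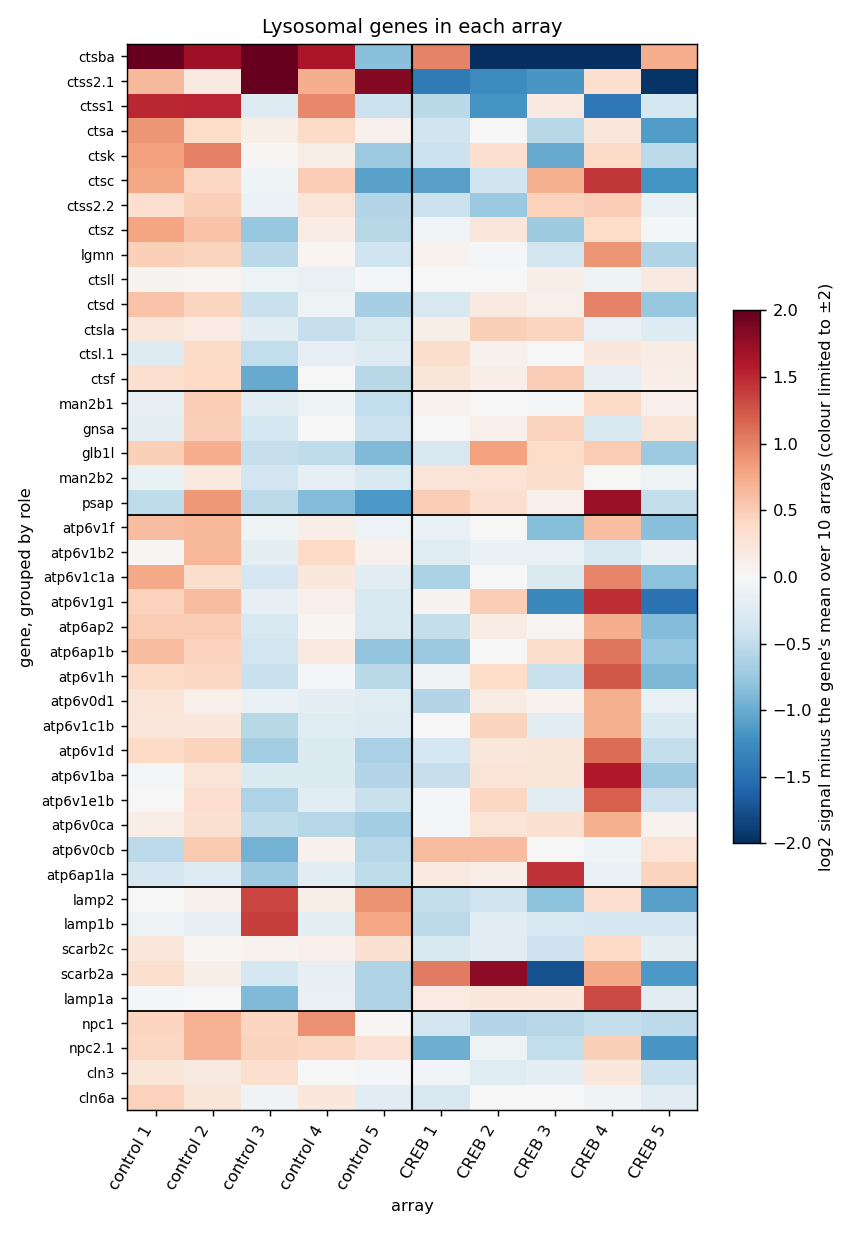
Log2 signal of each of the 43 genes (rows, grouped by role) on each array (columns, control left, CREB right), minus that gene's mean over the 10 arrays, with the colour limited to ±2. The column of CREB array 4 is high in most proton pump rows, control arrays 3 and 5 are high in ctss2.1, lamp2 and lamp1b, and npc1 is low across all CREB arrays.

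Within each group many of the lysosomal genes, though not all, were highest or lowest on the same arrays. CREB array 4 was the highest CREB array for 27 of the 43 genes, or 62.8%, and for 26% of all genes. For the proton pump it was the highest for 12 of 15. It was the lowest CREB array for 7 of the 43, or 16.3%, and for 24% of all genes. CREB array 5 was the lowest CREB array for 22 of the 43, or 51.2%, and for 22% of all genes. Control arrays 1 and 2 were the highest control arrays for 32.6% and 48.8% of the 43, and for 20.6% and 27% of all genes. Control array 5 was the lowest for 53.5% of the 43 and 19.7% of all genes, and control array 3 for 32.6% and 31.8%. The median SD within the group was 0.57 for the 43 genes on CREB arrays and 0.39 on control arrays, against 0.30 and 0.29 over all genes. The 43 genes were brighter than most, with a mean level of 8.42 in CREB and 8.59 in control fish against array medians of 5.72 to 5.93. These shares and SDs were not matched for signal level, so they are not read as particular to lysosomal genes.

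The pump genes had a mean level of 8.31, 8.73, 8.46, 9.28 and 8.04 on CREB arrays 1 to 5 and of 8.74, 8.88, 8.08, 8.45 and 8.10 on control arrays 1 to 5. The order of the arrays within each group was close to that of macrophage markers, and neutrophil markers shared part of it. The mean level of those 16 markers was 8.60, 8.87, 8.90, 9.69 and 8.59 in CREB fish and 9.11, 9.16, 8.56, 9.03 and 8.33 in control fish. None of the 16 was called and 1 had an unadjusted p under 0.05, with a median difference of -0.02, and none lay within 1 of the tag sequence level. Of 15 neutrophil markers 6 were lower and none higher in CREB fish, with a median difference of -0.78. Over all genes 9.09% were called lower, against 40% of these markers. The mean level of neutrophil markers was 9.64, 9.46, 10.01, 10.32 and 9.23 on CREB arrays 1 to 5. On control arrays 1 to 5 it was 10.91, 11.03, 10.17, 10.93 and 9.96. Like the pump genes, they were highest on CREB array 4 and lowest on CREB array 5 among CREB arrays, and highest on control array 2 among controls. Kidney tubule and ionocyte markers were at 7.99 on CREB array 4 and at 8.63 to 8.78 on the other CREB arrays. Of these 26 markers evx1, foxi1 and wt1a lay within 1 of the tag sequence level. The part of these cell types in the lysosomal values was not tested. Of the 3 osteoclast markers none was called and 1 had an unadjusted p under 0.05. The mean level of the 3 was 6.73, 7.25, 8.24, 9.62 and 6.92 on CREB arrays 1 to 5. On control arrays 1 to 5 it was 8.38, 8.08, 9.51, 8.81 and 9.24. Their differences ran from -2.77 to 0.04, with a median of -0.42. The lowest was that of acp5a, the tartrate-resistant acid phosphatase gene, also listed under other lysosomal enzymes. It was at 11.93 and 11.54 on control arrays 3 and 5, at 9.82 on CREB array 4 and at 5.60 to 6.79 on the other CREB arrays. Gonad and egg markers were at 9.05, 9.03 and 7.15 on control arrays 3 and 5 and CREB array 4. They were also raised on control array 4, at 7.69. A link was not tested. Another of the 3, mmp9, is also a neutrophil marker. Exocrine pancreas, erythroid and interrenal markers had 2, 0 and 3 genes higher and 1, 1 and 0 lower, of 16, 14 and 11. Called were 18.8%, 7.14% and 27.3% of them, against 28.4% of all genes. Of the 11 interrenal markers 8 lay within 1 of the tag sequence level, with the 3 called higher (nr5a1a, nr5a1b and th) among them. The pancreas gene ptf1a, 1 of the 2 called higher, was also at that level. No change is read from these 4 genes.

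**Figure D4:**
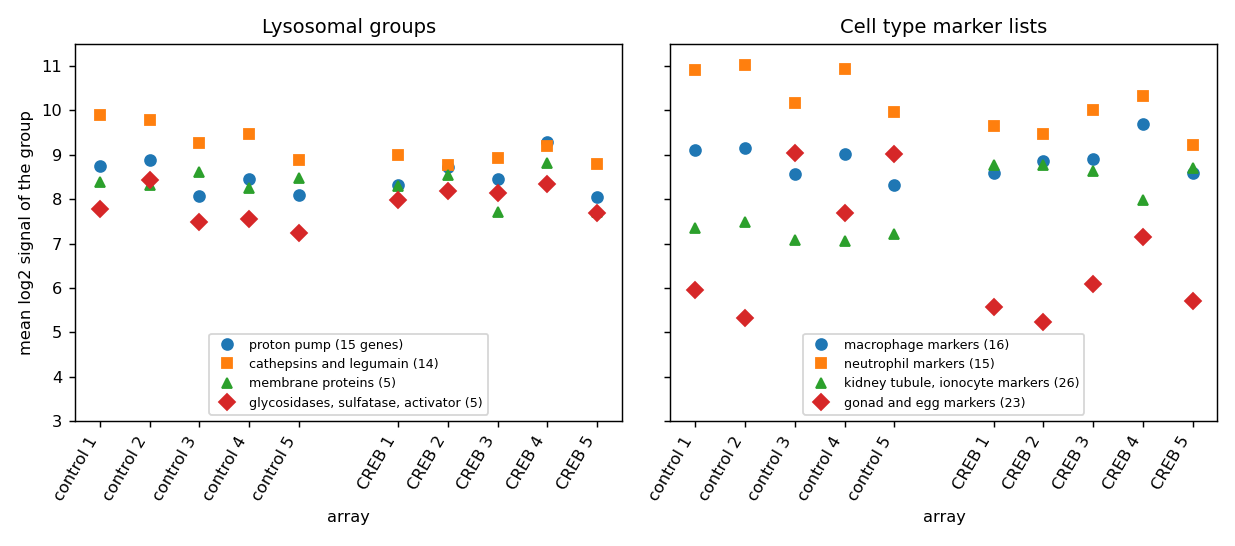
Mean log2 signal on each array for 4 lysosomal groups (left) and for 4 lists of cell type markers (right), with the number of genes in brackets. The proton pump and the macrophage markers are both highest on CREB array 4, at 9.28 and 9.69, and gonad and egg markers are at 9.05 and 9.03 on control arrays 3 and 5. Among CREB arrays the neutrophil markers are also highest on CREB array 4, at 10.32.

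Probe sets of the same gene disagreed on the arrays with a low gapdh 5′ signal. The second probe set of ctss2.2 was at 5.02 and 5.55 on CREB arrays 3 and 5, and at 8.56, 8.53 and 9.57 on CREB arrays 1, 2 and 4. On control arrays it was between 8.53 and 9.79. The brightest probe set of the gene was at 11.25 and 10.65 on CREB arrays 3 and 5, inside the range of the others. The second probe set of atp6v0ca was at 6.24 and 7.56 on CREB arrays 3 and 5, against 9.02 to 11.19 on the other 8 arrays. Differences were -1.87 ± 0.83 and -0.31 ± 0.86 for these 2 probe sets (SE; limma, adjusted p = 0.108 and 0.795), opposite in sign to the brightest probe set in the case of atp6v0ca. The 2 probe sets of ctsl.1 had differences of 0.32 and 0.34, with no drop on those arrays. The second of them had means of 5.21 in CREB and 4.87 in control fish, within 1 of the tag sequence level. A drop of the size seen above could therefore not show in it. The position of the probe sets along the transcripts was not analysed here.

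**Figure D5:**
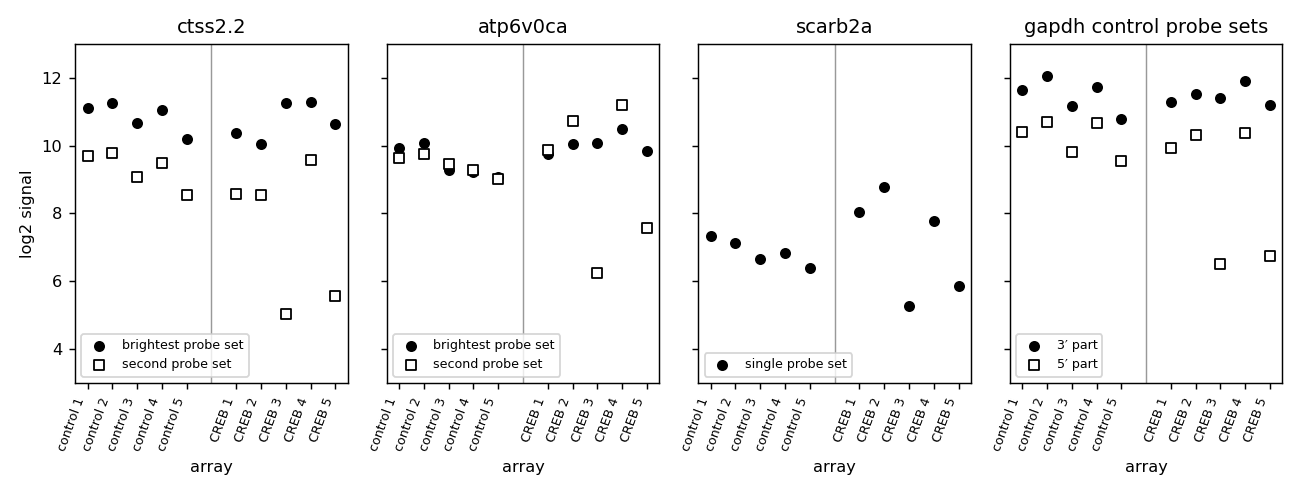
Log2 signal by array for the 2 probe sets each of ctss2.2 and atp6v0ca, for scarb2a and for the 3′ and 5′ control probe sets of gapdh. Open squares (second probe set, 5′ part) drop on CREB arrays 3 and 5, where gapdh 5′ is at 6.50 and 6.74 and its 3′ part at 11.40 and 11.20.

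Other genes of the lysosomal pathway, taken from 6 lists without the 43 genes, showed calls in both directions. Over all genes 28.4% were called, 19.3% higher and 9.09% lower. Of 28 other lysosomal enzymes and their helpers, 2 were lower, 1 was higher and 25 did not pass, with a median difference of -0.17. So 10.7% of these genes were called. The acid ceramidase gene asah1a was at 4.5, 4.25, 4.29, 4.61 and 3.54 in CREB fish and at 6.17, 6.35, 5.86, 5.73 and 5.78 in control fish. The groups did not overlap, and the CREB values were at the tag sequence level. The gene was called lower (limma, adjusted p = 0.00172), also under each alternative that tested it (adjusted p up to 0.0218). The filters on dim probe sets left it out. Against values at that level the size of the difference is not read. The sulfatase-activating factor gene sumf1 was lower, at -0.68 ± 0.15 and the acid sphingomyelinase gene smpd1 higher by 0.41 ± 0.09 (SE; limma, adjusted p = 0.0106 and 0.0132). The call of sumf1 was lost without control arrays 3, 4 and 5, and without CREB arrays 3 and 5. The signal of smpd1 was within 1 of the tag sequence level in both groups, and it did not pass under quantile, median or cyclic loess scaling. Nor did it pass without control arrays 3, 4 and 5, or without CREB arrays 3 and 5.

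Of 35 lysosomal membrane and transport genes 4 were higher, 2 were lower and 29 did not pass. So 17.1% were called, against 28.4% of all genes. The nucleic acid transporter gene sidt2 and the cysteine importer gene mfsd12a were higher by 0.42 ± 0.10 and 0.76 ± 0.20 (SE; limma, adjusted p = 0.0134 and 0.0208). The call of sidt2 was lost under median scaling and under the replicate block. The control values of mfsd12a were within 1 of the tag sequence level. Its call was lost under quantile and cyclic loess scaling and without CREB arrays 3 and 5. The small GTPase gene rab32b was called too (limma, adjusted p = 0.0230), but at a mean of 3.82 in CREB and 3.38 in control fish it was below the tag sequence level, so no change is read from it, and the call was lost under all 3 other scalings. The gene tmem192, which encodes a lysosomal membrane protein of little-known function, was lower, at -0.98 ± 0.25 (SE; limma, adjusted p = 0.0200). Its call was lost under the replicate block and without CREB arrays 3 and 5. Without control arrays 3, 4 and 5, where 2.63% of all genes were called, no gene of the list was called.

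Sorting and delivery genes bring enzymes and membranes to the lysosome, and 19 of 51 were called, 10 higher and 9 lower. The called genes made up 37.3% of the list, against 28.4% of all genes. The AP-3 coat gene ap3s1 was higher by 0.70 ± 0.12, and the SNARE gene vamp8, which is also among the neutrophil markers, had a difference of -1.52 ± 0.31 (SE; limma, adjusted p = 0.00583 and 0.00891). The BLOC-1 gene bloc1s4 and the tethering complex gene vps18 were lower, at -0.75 ± 0.16 and -0.74 ± 0.16 (SE; limma, adjusted p = 0.0101 and 0.0111). Without control arrays 3, 4 and 5, where 2.63% of all genes were called, 2 of the 51 were lower and none higher. There vamp8 kept its call, and those of ap3s1, bloc1s4 and vps18 were lost. Without CREB arrays 3 and 5, where 12.7% of all genes were called, 5 were lower and 4 higher.

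Transcription factors of the MiT/TFE family switch on lysosomal genes in mammals, under control of the nutrient-sensing kinase mTOR. Of 23 genes of this family and of nutrient sensing, with usf1 and usf2 among them, 4 were higher, 2 were lower and 17 did not pass. So 26.1% were called, against 28.4% of all genes. The MiT genes mitfa and mitfb were higher by 0.74 ± 0.16 and 0.48 ± 0.13, as was the arginine-sensor family gene castor2, by 0.59 ± 0.12 (SE; limma, adjusted p = 0.0121, 0.0204 and 0.0100). All 3 calls were lost under quantile and cyclic loess scaling, and without control arrays 3, 4 and 5. Those of mitfa and mitfb were also lost without CREB arrays 3 and 5. Signals of mitfa, at a mean of 4.82 in CREB and 4.08 in control fish, and the control signals of mitfb and castor2 were within 1 of the tag sequence level, which was itself higher in CREB fish, so the sizes of these differences are not read. Another family gene on the list, tfe3a, had an estimate in the other direction, at -0.51 ± 0.31 (SE; limma, adjusted p = 0.222). It did not pass, with means of 6.64 in CREB and 7.16 in control fish. The gene usf1, whose product binds E-box motifs, was lower, at -1.04 ± 0.12 (SE; limma, adjusted p = 0.00127), a call kept under each alternative tried (adjusted p up to 0.0406).

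Of 31 autophagy genes 3 were higher, 4 were lower and 24 did not pass, with a median difference of -0.03. Called were 22.6% of them, against 28.4% of all genes. The conjugation gene atg12, the initiation complex gene atg101 and the LC3 gene map1lc3b were lower, at -0.72 ± 0.14, -1.13 ± 0.22 and -0.87 ± 0.27 (SE; limma, adjusted p = 0.00777, 0.00816 and 0.0357). The receptor-like gene calcoco1b was higher by 1.1 ± 0.34 (SE; limma, adjusted p = 0.0365), but passed under none of the 3 other scalings, and its control signal was within 1 of the tag sequence level. The calls of map1lc3b and calcoco1b were each lost without any of 7 single arrays (adjusted p up to 0.0798 and 0.0674). Without control arrays 3, 4 and 5 the calls of atg12, atg101, map1lc3b and calcoco1b were all lost. Those of map1lc3b and calcoco1b were also lost without CREB arrays 3 and 5. Of 5 cathepsin inhibitor and serpin genes only serpinb1l3, a serpin of the intracellular clade, passed, higher by 0.53 ± 0.15 (SE; limma, adjusted p = 0.0277). Its call was lost without CREB array 1, control array 1 or control array 3 (adjusted p up to 0.0607), and without control arrays 3, 4 and 5 (adjusted p = 0.119).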

How the data were processed

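Biotin-labelled RNA of kidney marrow in 5 CREB and 5 control zebrafish samples was hybridised to Affymetrix zebrafish arrays, per the labels' protocols. The authors deposited 1 processed value per probe set and array. Its unit, log2, was read from the deposited values (2.57 to 15.04). How probes were summarised and arrays scaled was not stated in the labels or the table, and detection calls were not used. After 115 control probe sets were set aside, 15502 were tested. Symbols came from the platform annotation. All 43 genes matched a RefSeq gene by Entrez ID (assembly GRCz12tu, for names and neighbours only).

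The comparison used R 4.3.3 and limma 3.58.1: a linear model per probe set with moderated two-sided tests (eBayes) and p-values adjusted by Benjamini and Hochberg's method over all of them, with no filter or covariate. The fit was tested on simulated data. Python 3.11.15, pandas 2.3.3, scipy 1.17.1 and matplotlib 3.10.9 were used for annotation, intervals and figures. Genes described array by array were those called, those with the largest difference or highest signal of their class, and others chosen after their values were seen (ctss1, lamp1a, lamp1b, scarb2a, atp6v1ba, atp6v0ca). From each pathway list up to 4 called genes with the smallest p were named. The genes, lists and alternatives were chosen with earlier results of these data known. Signals of different probe sets are not compared as transcript amounts.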

Additional observations from a re-analysis of the deposited data

Results flagged for a closer look

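In 86 groups of 5 arrays (43 genes, 2 groups each) the distance of the highest or lowest array from the others was examined, and 2 arrays lay further out than Dixon's 95% limit. Chance flags about 1 in 20 such groups. The gene lamp1a was at 10.56 on CREB array 4, with the other CREB arrays between 9.02 and 9.44. The gene scarb2c was at 7.61 on CREB array 4, with the others between 6.81 and 7.03. Both lay on the array that was highest of the CREB arrays for 27 of the 43 genes.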

How the results depend on the processing

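The single call on the higher side went to 0 under the replicate block and under quantile, median or cyclic loess scaling. Over all genes 15.5%, 20%, 21.4% and 19.8% were called under these settings, against 28.4% in the main fit. The single higher call also went to 0 without control arrays 3, 4 and 5. Both filters on dim probe sets (the dimmest 40%, or those with a mean below log2 6) left its gene, atp6ap1la, untested. They do not bear on that call. With 1 array left out higher calls ranged from 0 to 4, the 4 (ctsl.1, psap, atp6v0ca and atp6v0cb, without control array 2) being gains, and the 1 without CREB arrays 3 and 5 was scarb2a. Lower calls numbered 6 over all arrays. With array weights, which were lowest for control arrays 3 and 5 (0.39 and 0.59), all 6 were kept. The genes ctss1, cln6a and atp6v1b2 were gained, giving 9. The trend and robust settings of eBayes also gained ctss1. Under the replicate block 2 lower calls were made (ctss2.1 and npc1), and under each filter 3 (those and npc2.1). The filters left 21.4% (dimmest 40%) and 20.2% (log2 6) of all genes called. Without control arrays 3, 4 and 5 there were 2 lower calls (npc1, and ctss1 as a gain), and without CREB arrays 3 and 5, 1 (npc1). With 1 array left out lower calls ranged from 2 to 7, gains included, with ctss2.1 and npc1 among them each time. The share of all genes called with 1 array left out ranged from 18.9% to 31.7%. So lost calls among the 43 are not set apart from the change in calls over all genes. Among the named genes of the pathway lists, the replicate block ended the calls of smpd1, sidt2, tmem192, rab32b, mitfa, map1lc3b, calcoco1b and serpinb1l3. The filter at log2 6 also ended that of serpinb1l3. The median difference of the 43 ranged from -0.35 to 0.13. Cyclic loess scaling moved the median of all genes by -0.15. Same-numbered CREB and control arrays did not deviate together (correlations 0.20, 0.27, 0.047, -0.0027 and -0.023, 1 of 5 closest to its own number), so the numbers were not taken as pairs.

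Signs turned in genes that were not called. With array weights ctsd was at -0.17, atp6v0d1 at -0.00083 and atp6v1h at -0.15. Cyclic loess and quantile scaling put ctsll at -0.17 and -0.12, and quantile scaling lgmn at 0.075 and atp6ap1b at 0.019. Without CREB arrays 3 and 5, ctsll was at -0.00098, ctsz at 0.14, lgmn at 0.31, atp6ap1b at 0.095, atp6ap2 at 0.046 and atp6v1g1 at 0.53. Without control arrays 3, 4 and 5, ctsd was at -0.46, ctsf at -0.18, ctsla at -0.073, ctsll at -0.0062, glb1l at -0.47, gnsa at -0.047, man2b1 at -0.072, scarb2a at -0.086, atp6v0d1 at -0.14, atp6v1c1b at -0.091, atp6v1d at -0.27 and atp6v1h at -0.35. With 1 array left out the ranges that crossed 0 were -0.60 to 0.058 for ctsc, -0.16 to 0.28 for ctsd, -0.31 to 0.028 for ctss2.2, -0.28 to 0.11 for ctsz, -0.23 to 0.14 for lgmn, -0.14 to 0.75 for scarb2a, -0.30 to 0.16 for atp6ap1b, -0.37 to 0.024 for atp6ap2, -0.086 to 0.24 for atp6v0d1, -0.70 to 0.042 for atp6v1g1 and -0.22 to 0.31 for atp6v1h. The cause was not tested. Signals within 1 of the tag sequence level limit what ctsll, cln3, atp6ap1la and atp6v1b2 can show.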
